A study of Homo sapiens with 6 samples.

Results

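The genes of polyamine synthesis and hypusination were examined in the binding lists of N-Myc and JMJD6 in CHP-134 cells. The 10 genes were taken by name: ODC1, AMD1, SRM, AZIN1, OAZ1, OAZ2, PAOX, SMOX, DHPS and DOHH. A gene counted as listed where its symbol stood in a deposited list of promoters, typical enhancers or super-enhancers. Of the 10 genes, 4 were listed and 6 were not, and the N-Myc list of typical enhancers alone named 31.8% of 20136 coding genes. The lists named 8217 gene symbols in all, coding and non-coding. The share of coding genes named in any list was not computed. CHP-134 is an established human neuroblastoma line that overexpresses N-Myc according to the series title, and no knockdown or drug treatment is given for these samples. Chromatin immunoprecipitation was followed by sequencing (ChIP-seq) with an antibody against N-Myc in 3 samples and against JMJD6 in 3. N-Myc samples were cross-linked with formaldehyde alone and JMJD6 samples with disuccinimidyl glutarate first, so protein and cross-linking cannot be told apart. A common peak is one found in all 3 replicates of an antibody, so a gene without one may still have had a peak in part of them. The lists give positions alone, and neither the sequencing depth nor the strength of a peak can be read from them. No spread between replicates could be computed, and the counts below are given as descriptions without a test. The data come from a single cell line.

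Polyamines (putrescine, spermidine and spermine) are small cations that dividing cells need for translation and growth. ODC1 makes putrescine from ornithine, and AMD1 supplies the aminopropyl donor that SRM uses to turn putrescine into spermidine. Spermidine is in turn the substrate with which DHPS modifies a lysine of the translation factor eIF5A, and DOHH then completes the change to hypusine. ODC1 is a long-known target of Myc proteins, which bind the E-box CACGTG as dimers with MAX.

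The reference sequence around the starts of these genes shows where N-Myc peaks and E-boxes lay. The first set holds stretches of ODC1 and AMD1 with a CACGTG inside an N-Myc peak, printed in the direction of transcription on GRCh37. Capitals mark CACGTG, which reads the same on both strands.
ODC1, whole peak upstream of the start (chr2:10588802-10589057, minus strand): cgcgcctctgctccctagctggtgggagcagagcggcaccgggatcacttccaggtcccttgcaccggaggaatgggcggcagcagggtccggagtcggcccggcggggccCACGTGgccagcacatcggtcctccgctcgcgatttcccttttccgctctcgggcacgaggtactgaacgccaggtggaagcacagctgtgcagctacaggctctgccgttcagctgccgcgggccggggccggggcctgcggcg
AMD1, part of the peak in the intron (chr6:111197621-111197920, plus strand): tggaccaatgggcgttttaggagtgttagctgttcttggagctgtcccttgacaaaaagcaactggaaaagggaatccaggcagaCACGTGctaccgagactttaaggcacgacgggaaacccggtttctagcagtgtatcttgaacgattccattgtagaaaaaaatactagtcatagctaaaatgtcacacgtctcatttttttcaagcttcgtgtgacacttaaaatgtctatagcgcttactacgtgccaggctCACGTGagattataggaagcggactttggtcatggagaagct

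The second set holds the CACGTG motifs within 1 kb of a start that lay outside every common N-Myc peak, each with 12 bases on either side. They are shown because the motif stood near the start of a listed gene (ODC1) or of an unlisted gene (SRM, PAOX and DOHH) with no common peak over it. No sequence is printed for DHPS or AZIN1.
ODC1, intron, nearer to the start (chr2:10588150-10588179, minus strand): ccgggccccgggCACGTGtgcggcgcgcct
ODC1, intron, farther from the start (chr2:10588116-10588145, minus strand): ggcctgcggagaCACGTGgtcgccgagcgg
SRM, upstream of the start (chr1:11120257-11120286, minus strand): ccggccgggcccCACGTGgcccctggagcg
SRM, intron, nearer to the start (chr1:11119607-11119636, minus strand): tgcgccccgctcCACGTGtcagccctcagg
SRM, intron, farther from the start (chr1:11119517-11119546, minus strand): gccgttcctcgcCACGTGtcaccatcgctc
PAOX, coding exon (chr10:135193628-135193657, plus strand): gagaccgggggtCACGTGggcctgccctcc
DOHH, at the start (chr19:3500664-3500693, minus strand): gtccggcacggtCACGTGggcgagaaaatg

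The N-Myc promoter list (1 kb on each side of a start) named ODC1, AMD1, AZIN1 and DHPS, or 4 of the 10 genes, and the same list named 17.5% of 20136 coding genes. The genes fell across the roles of the pathway. Of the enzymes of synthesis, ODC1 and AMD1 were listed and SRM was not. Of the regulators of ODC1, AZIN1 was listed and the antizymes OAZ1 and OAZ2 were not. Neither oxidase, PAOX or SMOX, was listed. Of the hypusination enzymes, DHPS was listed and DOHH was not. The N-Myc list of typical enhancers, which names the nearest genes of each region, named the same 4 genes, against 31.8% of coding genes. The N-Myc list of super-enhancers named none of the 10, against 1.31% of coding genes. The 4 genes had 7 promoter rows and 7 typical enhancers, and these held 14 N-Myc peaks between 256 and 873 bp wide.

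**Figure D1:**
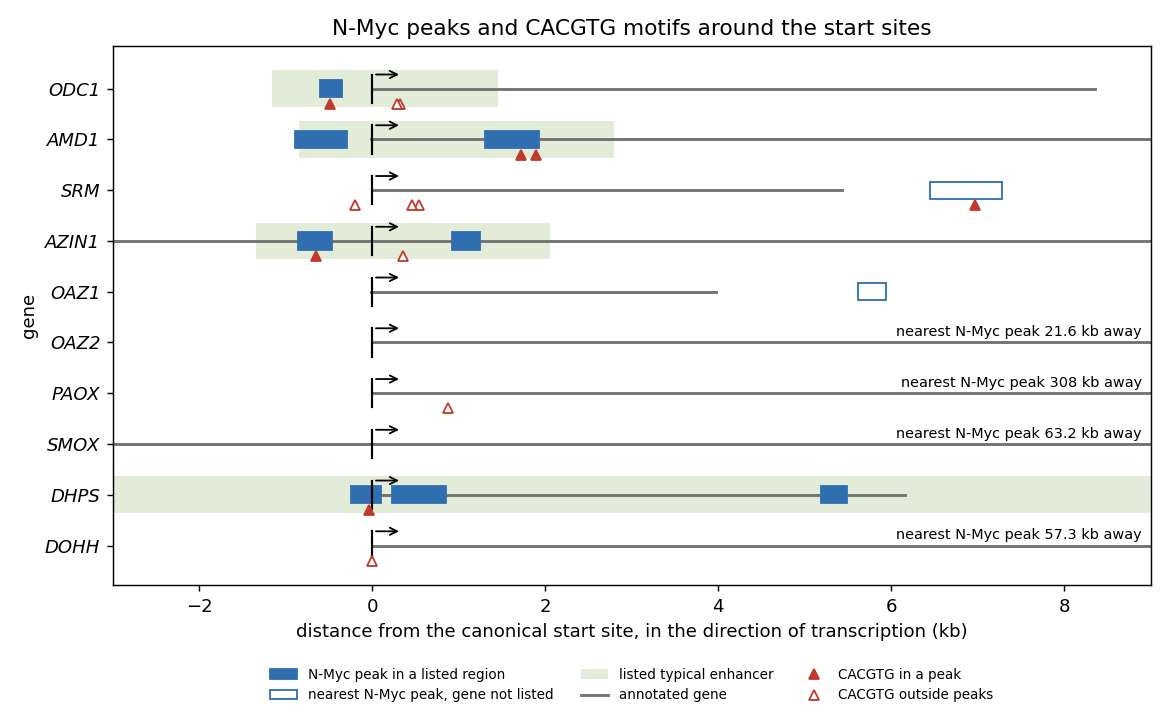
Map of each gene around the start of its canonical transcript (Ensembl canonical in GENCODE), with distance in kb along the direction of transcription. Filled blue boxes are common N-Myc peaks in listed regions, open boxes the nearest peak of an unlisted gene, green bands listed typical enhancers and triangles CACGTG motifs within 1 kb of a start or inside a drawn peak (filled inside a peak, open outside). Peaks flank the starts of AMD1 and AZIN1, 1 peak lies over the start of DHPS, and OAZ2, PAOX, SMOX and DOHH have none in the window.

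ODC1, the enzyme that commits ornithine to polyamine synthesis, lies on chromosome 2 (10580094 to 10588453, minus strand). Its N-Myc peak spanned 10588802 to 10589057, 349 bp upstream of the start, and overlapped the divergent non-coding gene ODC1-DT. At 256 bp the peak was narrow: 5.41% of the 3550 N-Myc peaks at listed promoters were narrower, and their median width was 452 bp. It held 1 CACGTG, 14 bp from its centre and at -493 bp from the start (negative values lie upstream). Another 2 CACGTG motifs lay in an intron of the canonical transcript, 286 and 320 bp after the start, the pair printed above. These were outside the peak by 640 and 674 bp, and no other common peak covered them. The peak therefore covered 1 of the 3 E-boxes within 1 kb of the start.

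ODC1 was also the nearest or second nearest gene of 3 typical enhancers with N-Myc. The first, of 2611 bp, overlapped the start and held the promoter peak. The second, of 761 bp, held a peak of 320 bp without a CACGTG, 100.4 kb upstream of the start. The third, from 10829095 to 10830674, held a peak of 571 bp without a CACGTG, 241.3 kb upstream and at the promoter of NOL10. Both distal regions name NOL10 as well.

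AMD1, which makes decarboxylated S-adenosylmethionine, lies on chromosome 6 from 111195973 to 111220082 on the plus strand. Upstream of it a peak of 592 bp (111195099 to 111195690) ended 298 bp upstream of the start and held no CACGTG and none of the variant E-boxes searched. The variants, searched on both strands, were CACGCG, the related CACGAG, then CATGTG with its reverse complement CACATG, and last CATGCG. Of the N-Myc peaks at all listed promoters 81.6% held CACGTG or a variant. A second peak of 632 bp (111197289 to 111197920) lay in an intron, 1301 bp after the canonical start. Another annotated start of AMD1 was 511 bp from this peak. The peak lay beyond the listed promoters but within the typical enhancer of 3652 bp listed for AMD1. It held 2 CACGTG motifs, and 77.0% of N-Myc peaks at promoters were narrower. No CACGTG lay within 1 kb of the canonical AMD1 start. A second promoter listed for AMD1 was centred at -60165 bp from the start, outside the gene as annotated. Its peak, 873 bp from 111136571 to 111137443, is also listed for CDK19 and held no CACGTG.

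SRM, spermidine synthase, lies on chromosome 1 (11114641 to 11120077, minus strand) and was in no list. It had 3 CACGTG motifs within 1 kb of its start, at -199 bp from it and 451 and 541 bp after it, as many as ODC1. All 3 were outside common N-Myc peaks, by 5.91 to 6.65 kb. The nearest N-Myc peak, 827 bp from 11112798 to 11113624, lay past the 3′ end of the gene, 6451 bp from the canonical start. Another annotated start of SRM was 1637 bp from this peak. That peak held 1 CACGTG, and 91.1% of N-Myc peaks at promoters were narrower. The motifs of ODC1 and SRM resembled each other in their flanks, since each gene had an upstream CCACGTGG. The one at ODC1 lay in a peak and the one at SRM did not. Of 784 sites CCACGTGG within 1 kb of coding starts, 30.6% lay in an N-Myc peak (exact 95% CI 27.4 to 33.97%), and of 6892 CACGTG sites in all 19.5% did. These intervals cover counting error over sites only.

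Among the regulators, AZIN1 encodes antizyme inhibitor, which takes antizyme away from ODC1. It lies on chromosome 8 (103838339 to 103906092, minus strand). A peak of 391 bp (103876857 to 103877247) lay 466 bp upstream of the start of the canonical transcript and held 1 CACGTG, 3.5 bp from its centre. Longer AZIN1 transcripts begin farther upstream. The peak is also listed for the antisense RNA gene AZIN1-AS1. A second peak of 322 bp (103875145 to 103875466) lay in an intron, 925 bp after the start, with no CACGTG. The other CACGTG within 1 kb, 354 bp after the start, fell in the gap between the peaks. Of 2 typical enhancers listed for AZIN1, one of 3396 bp held both peaks. The other, of 13318 bp, held 2 N-Myc peaks with 3 CACGTG motifs, 56.3 and 57.6 kb downstream of the start. These peaks overlapped the non-coding gene GASAL1, whose promoter is listed as well.

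The antizymes OAZ1 and OAZ2, which bind ODC1 and send it to the proteasome, were in no list. OAZ1 lies on chromosome 19 from 2269508 to 2273489 on the plus strand. Its closest N-Myc peak, 320 bp from 2275138 to 2275457, was 5619 bp from the canonical start, beyond the 3′ end and within PEAK3. Another annotated start of OAZ1 was 2615 bp from this peak. At OAZ2 (chromosome 15, 64979772 to 64995480, minus strand) the closest N-Myc peak was 21.6 kb from the canonical start, within ZNF609. Neither canonical start had a CACGTG within 1 kb. For the regulators of ODC1, then, N-Myc was listed at the inhibitor of antizyme and not at either antizyme.

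The oxidases were the genes farthest from N-Myc peaks by canonical start, though SMOX (63.2 kb) was close to DOHH (57.3 kb). The median over coding autosomal genes was 54.4 kb. PAOX, which oxidises acetylated polyamines, lies on chromosome 10 (135192765 to 135205198, plus strand), and its nearest peak was 308.1 kb away. That peak, from 135500864 to 135501223, was shared with JMJD6. SMOX, spermine oxidase, lies on chromosome 20 (4101627 to 4168394, plus strand), and its nearest peak was 63.2 kb away. Another annotated start of SMOX was 35329 bp from this peak. PAOX had 1 CACGTG within 1 kb of its start, in a coding exon 874 bp after it, and SMOX had none.

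Of the hypusination enzymes, DHPS, which attaches the aminobutyl group of spermidine to eIF5A, lies on chromosome 19 (12786531 to 12792694, minus strand). It was the only one of the 10 genes with a common N-Myc peak over its canonical start. That peak, 348 bp from 12792595 to 12792942, held 1 CACGTG, at -39 bp from the start and 38 bp from the peak centre. A second peak of 626 bp (12791843 to 12792468) lay just inside the gene, over coding exon and intron, with no CACGTG. The typical enhancer listed for DHPS spanned 19264 bp and the whole gene. It held 4 N-Myc peaks, the 2 already described, one within DHPS at 5190 bp from the start and one at the promoters of WDR83 and WDR83OS, and the latter gene is named for the region too.

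DOHH, which completes hypusine by hydroxylation, lies on chromosome 19 (3490819 to 3500672, minus strand) and was in no list. Its nearest N-Myc peak, at the promoter of MFSD12, was 57.3 kb away. A CACGTG stood at -9 bp from the DOHH start, closer than the one at DHPS, and no common peak covered it. The enzymes of consecutive steps thus differed in their listing although each had an E-box just upstream of its start.

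**Figure D2:**
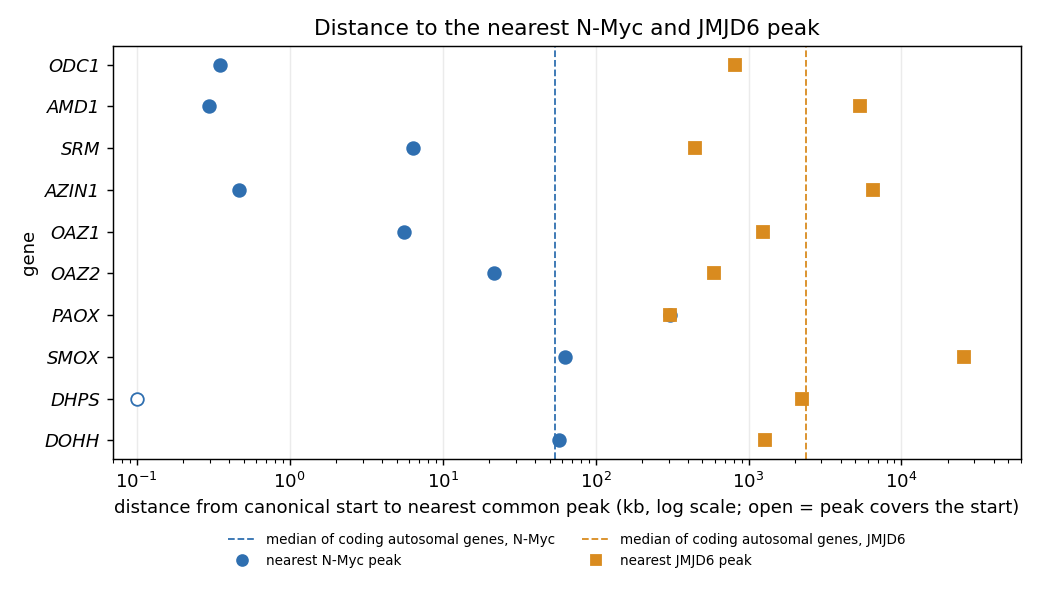
Distance in kb, on a log axis, from the canonical start of each gene to the nearest common peak of N-Myc (blue circles) and of JMJD6 (orange squares), with dashed lines at the medians of 19222 coding autosomal genes. The open circle at the left is DHPS, whose start lies inside a peak, and PAOX has the same nearest peak for both proteins, so its symbols overlap.

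Ordered by the distance from the start to the nearest N-Myc peak, the genes ran from DHPS (0 bp) through AMD1 (298 bp), ODC1 (349 bp) and AZIN1 (466 bp) to OAZ1 (5.62 kb) and SRM (6.45 kb). OAZ2 (21.6 kb), DOHH (57.3 kb), SMOX (63.2 kb) and PAOX (308.1 kb) followed. The median was 6.04 kb, and 54.4 kb over 19222 coding autosomal genes. Of those genes, 14.8% had a nearer peak than ODC1, 23.4% a nearer peak than SRM and 86.7% a nearer peak than PAOX. The first 4 genes of this order were the listed ones, which follows from listing promoters by peaks within 1 kb of a start. From the canonical start the distance then rose from 0.466 to 5.62 kb. Measured to any annotated start, the same peaks lay 1637 bp from SRM and 2615 bp from OAZ1.

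JMJD6, a jumonji domain protein, was listed at none of the 10 genes. Its list of common peaks was short, with 561 peaks against 10172 for N-Myc. The share of coding genes named was 0.626% in the JMJD6 promoter list, 0.909% in its list of typical enhancers and 0.0745% in its list of super-enhancers, so a count of 0 among 10 genes is near what these lists give for any genes. None of the 14 N-Myc peaks in regions listed for the 4 genes overlapped a JMJD6 peak, and 7 of these peaks overlapped promoter rows. Of the N-Myc peaks at all listed promoters 1.38% did, a share taken over promoter peaks only. The nearest JMJD6 peak was 308.1 kb from PAOX, 445.9 kb from SRM, 592.7 kb from OAZ2 and 816.9 kb from ODC1. For the other 6 genes it was over 1 Mb away, with a median over all 10 of 1269 kb and over coding autosomal genes of 2376 kb. The peak nearest to PAOX was the one common to both proteins.

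At 3 of the 4 listed genes no peak covered the canonical start. Over the 5078 starts in the N-Myc promoter list, the share covered by an N-Myc peak was highest just upstream, at 55.1% at 100 bp before the start, and was 52.03% at the start itself. At 500 bp before and after the start it was 23.7% and 17.1%. Of 3525 listed coding genes, 49.02% had a peak over the canonical start, and of the 4 genes here DHPS did. The midpoints of the upstream peaks lay at -476 bp (ODC1), -594 bp (AMD1) and -661 bp (AZIN1) from the start.

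**Figure D3:**
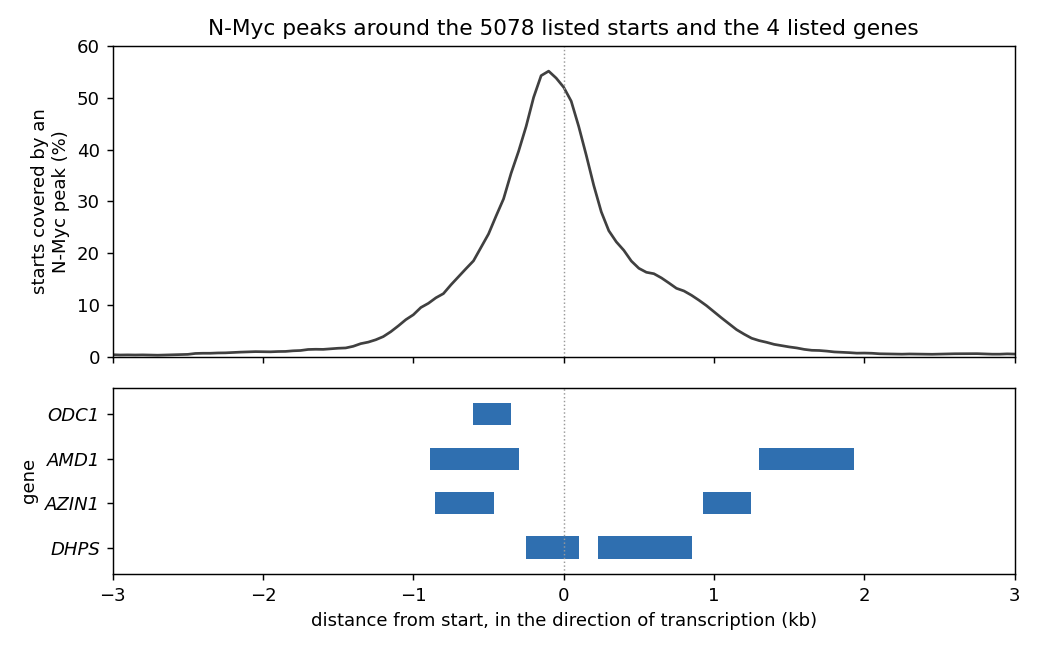
Upper panel: percent of the 5078 starts in the N-Myc promoter list covered by a common N-Myc peak at each distance from the start, in kb along the direction of transcription. Lower panel: the N-Myc peaks of the 4 listed genes on the same axis, where the peaks of ODC1, AMD1 and AZIN1 miss the start and 1 peak of DHPS covers it.

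The 7 N-Myc peaks over promoter rows of the 4 genes included 3 with a CACGTG, 1 each at ODC1, AZIN1 and DHPS. Of the 3550 N-Myc peaks at all listed promoters 36.9% held one (exact 95% CI 35.3 to 38.5%), and 3 of 7 is near that share. In peaks with the motif the median distance from the centre to the nearest CACGTG was 70.5 bp, and it was 3.5 bp at AZIN1, 14 bp at ODC1 and 38 bp at DHPS. Within 1 kb of the 10 canonical starts there were 11 CACGTG motifs at 6 genes, and 3 of the 11 lay in an N-Myc peak. The 8 outside were the 3 of SRM, 2 of ODC1 and 1 each of AZIN1, PAOX and DOHH.

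CACGTG stood within 1 kb of the canonical start at 5878 of 20136 coding genes. Across coding genes the N-Myc listing became more frequent with the number of CACGTG motifs near the start. It was 13.1% of 14258 genes with none (exact 95% CI 12.54 to 13.66%), 25.6% of 4585 genes with 1 (24.3 to 26.9%), 36.99% of 1057 genes with 2 (34.1 to 39.98%) and 39.8% of 236 genes with 3 or more (33.5 to 46.4%). ODC1 and SRM were both among the 236 genes, and ODC1 was listed. AZIN1 had 2 motifs and was listed. Of the genes with 1 motif, DHPS was listed and PAOX and DOHH were not. Of those with none, AMD1 was listed and OAZ1, OAZ2 and SMOX were not. The listed and unlisted genes thus stood side by side at most motif counts.

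**Figure D4:**
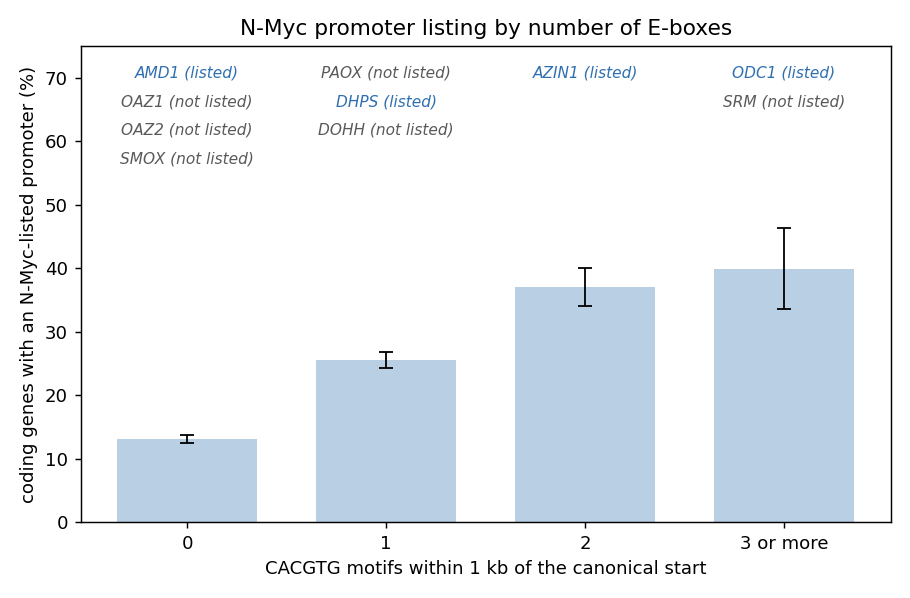
Percent of coding genes with a promoter in the N-Myc list (bars, with exact 95% binomial intervals over genes) by the number of CACGTG motifs within 1 kb of the canonical start, from 13.1% with none to 39.8% with 3 or more. The 10 genes are written above the bar of their own motif count, in blue where listed and in grey where not.

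The wider pathway was read from 21 further genes. Of these 21, 8 had a promoter listed for N-Myc, against 17.5% of coding genes, and none had one listed for JMJD6, against 0.626%. Both genes of the hypusine substrate were listed. EIF5A had a peak of 638 bp (chromosome 17, 7210067 to 7210704) that ended 243 bp upstream of its canonical start, with no CACGTG. This peak covered another annotated start of EIF5A. EIF5A2 had one of 298 bp (chromosome 3, 170626484 to 170626781) that began 58 bp upstream of its start, with 2 CACGTG motifs. Of the 7 genes of the methionine cycle and salvage, which provide and recover the aminopropyl donor, MAT2A, MAT2B, MRI1 and ENOPH1 were listed and MTAP, APIP and ADI1 were not. MAT2A, the S-adenosylmethionine synthetase outside the liver, had a peak of 706 bp in an intron with 2 CACGTG motifs and a second peak of 338 bp upstream. Both MAT2A peaks are also listed for PARTICL. ENOPH1 had a peak over its start with 2 CACGTG motifs, which is also listed for HNRNPDL.

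Of 4 transport genes SLC3A2 and SLC18B1 were listed, while ATP13A2, a lysosomal polyamine exporter, was named only for a typical enhancer whose peak lay at SDHB, and ATP13A3 was in no list. The promoter listed for SLC3A2 was centred at -24885 bp from its canonical start, at another annotated start. Its peak is also listed for SNHG1. SLC3A2 was the only one of the 21 named for JMJD6, at a super-enhancer of 32329 bp (chromosome 11, 62597955 to 62630283) that also names WDR74. The JMJD6 peak there overlapped WDR74, 38.6 kb from the canonical start of SLC3A2. None of the other genes of synthesis (SMS, ARG1, ARG2, AGMAT), of the relatives of antizyme and its inhibitor (AZIN2, OAZ3) or of acetylation (SAT1, SAT2) had a listed promoter. SMS and SAT1 lie on chromosome X, where the promoter lists of both proteins hold 0 rows.

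The genes whose N-Myc peak was most like those of ODC1, AZIN1 and DHPS, which tie with 1 CACGTG in their promoter peaks, were taken by peak width among 1581 genes with at least 1 CACGTG in a promoter peak. For ODC1 (256 bp) CBX5 and UBE2Q1 had peaks of equal width, with 1 and 3 CACGTG, as did LOC101929715, which shares the peak of ODC1. For DHPS (348 bp) PFDN5 had a peak of equal width. For AZIN1 (391 bp) the gene of equal width was MAILR, the current name of AZIN1-AS1, which shares the peak, and the peaks of GRM4 and FDFT1 differed by 1 bp. Width is the only quantity per peak in the lists.

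As a check of the cell type, 9 markers of adrenergic neuroblastoma were looked up in the N-Myc lists. HAND2 and GATA3 were named for super-enhancers and 7 of the markers for typical enhancers, while none had a listed promoter and DBH was in no N-Myc list. Of 6 markers of other cells or states, 0 were named for a super-enhancer, 1 for a promoter (FOSL2) and 1 for a typical enhancer (PTPRC). These are positions of binding, not expression.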

How the data were processed

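ChIP-seq was performed in CHP-134 cells with 3 replicates per antibody, grouped by the antibody in the labels. Per the labels and the published methods, alignment by the authors used BWA and hg19, with SAMtools and BEDTools for file handling, and they called peaks against input with MACS2 (version 2.1.1.20160309) at q below 0.05. Regions were retained where a peak was found in every replicate. Promoters were 1 kb on each side of RefSeq starts, enhancers came from H3K27ac with ROSE, and the nearest genes from GREAT. The deposited values are start and end positions in bp, and the 12 lists hold no count, score or column per sample.

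Symbols were matched to GENCODE version 44 lifted to GRCh37, the build of the files, with older symbols matched through RefSeq. Coordinates are 1-based. Overlap meant at least 1 bp. A peak or motif is placed against the canonical transcript. CACGTG was searched in the GRCh37 reference. Shares have exact (Clopper-Pearson) 95% intervals. No test was run, since no list separates samples. The genes and gene lists were chosen with earlier results of these data known. All 10 genes are named whatever their values, the others where a list names them or by the fixed likeness rule, and a few items these rules name are not reported here. Python 3.11.15, SciPy 1.17.1, pysam 0.24.0 and matplotlib 3.10.9 were used, and planted distances and motifs were recovered in simulated data.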

Additional observations from a re-analysis of the deposited data

How the results depend on the processing

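The count of listed genes depended on how a promoter was called. It was 4 with a common N-Myc peak within 1 kb of any annotated start or with a common peak in the listed promoter. Within 5 kb of any annotated start it was 6 (SRM and OAZ1 were added). With peaks at least as wide as the median of all common N-Myc peaks (418 bp), within 1 kb of a start, it was 2 (AMD1 and DHPS). With a peak over the canonical start it was 1 (DHPS). The share of coding genes was 20.8%, 25.7%, 12.8% and 9.18% under the 1 kb, 5 kb, wide-peak and canonical-start rules, 6.35% over all gene symbols and 18.3% without chromosome X. Without typical enhancers over listed promoters 1 gene (ODC1) kept an N-Myc enhancer, and 5 had one in the gene body or within 50 kb of a start. The share of coding genes was not computed under either of these enhancer rules, so both counts stand without a background. Of the 7 promoter peaks, 5 held CACGTG or a variant, 3 held CACGTG within 100 bp of the centre and 0 of the 3 at least as wide as the median held CACGTG. For all promoter peaks the shares were 81.6% with variants, 39.8% among wide peaks and 23.1% within 100 bp of the centre. The JMJD6 counts were 0 under each alternative. The cause of these differences was not tested beyond what each rule counts. The rule of the canonical start, the matching of symbols only as written and the exclusion of chromosome X were chosen after seeing the data. No paired analysis was possible because the lists pool the replicates, and for the same reason no replicate could be left out. A stricter peak threshold could be imitated only by width.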

Other observations

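N-Myc peaks stood on both sides of an uncovered canonical start within 2 kb at AMD1 and AZIN1, and also at MAT2A, which supplies S-adenosylmethionine. Of 3525 listed coding genes 96, or 2.72%, had this arrangement. It was noticed after the peaks of these genes were seen, and its origin was not tested. Of the listed coding genes 9.45% had 2 or more N-Myc peaks in their promoter rows.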
